A study of Homo sapiens with 4 samples.

Results

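The genes described here are 10 ligands and target genes of the transforming growth factor beta (TGF-beta) and bone morphogenetic protein (BMP) pathways, out of 46660 gene identifiers in the deposited RNA-seq table. They are the ligands *TGFB1* and *TGFB2*, the inhibitory SMAD gene *SMAD7*, the ID genes *ID1*, *ID2* and *ID3*, and the matrix genes *TGFBI*, *THBS1*, *CCN1* and *CCN2*, of which the last pair is also written *CYR61* and *CTGF*. They were chosen by name, with earlier results of these data known, and all 10 passed the filters on low counts. The study asked what changes in glioblastoma cells once *FLI1*, an ETS family transcription factor, is knocked down. It provided 4 libraries, 1 for each arm of 2 established human glioblastoma cell lines, U87MG and U251MG. Control cells had been infected with an empty pGreen lentivirus (named shControl in the sample titles) and shFLI1 cells with a pGreen lentivirus carrying shRNA against *FLI1*. The paper describes its infected cells as puromycin-selected mixed stable cells, so not as single clones, and names RT-qPCR and western blot as their use. Its cell lines were grown in DMEM with fetal bovine serum. All 4 cell populations had carried a lentivirus.

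TGF-beta and BMP ligands bind paired receptor kinases at the cell surface, which phosphorylate SMAD proteins that enter the nucleus and switch on target genes. TGF-beta typically acts through SMAD2 and SMAD3 on matrix and cytoskeletal genes, and BMPs through SMAD1, SMAD5 and SMAD9 on the ID genes, whose products block basic helix-loop-helix transcription factors and hold cells in an undifferentiated state. *SMAD7* is a target of the pathway that shuts its receptors off again. *CCN1* and *CCN2* also respond to the coactivator YAP and its partner TEAD transcription factors, which the Hippo pathway holds back, and serum activates YAP too. In glioblastoma, TGF-beta is known for immune suppression and invasion, and ID proteins for stem-like tumour cells.

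On the GRCh38 assembly, *TGFB1* lies at chr19:41301587-41353922 on the minus strand and *TGFB2* at chr1:218345336-218444619 on the plus strand. *SMAD7* lies at chr18:48919853-48950965 (minus). The ID genes are small, with *ID1* at chr20:31605283-31606515 (plus), *ID2* at chr2:8678845-8684461 (plus) and *ID3* at chr1:23557926-23559501 (minus). *TGFBI* lies at chr5:136028988-136063818 (plus), *THBS1* at chr15:39581079-39599466 (plus), *CCN1* at chr1:85580761-85584589 (plus) and *CCN2* at chr6:131948176-131951372 (minus).

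The bases just before the start of 5 of these genes are shown because the values below set them against each other. *TGFB2*, *ID1* and *ID2* fell in the test shared by both cell lines. *CCN2* and *THBS1* share short sequence matches with *TGFB2* and differed from each other in their response. Each window is the 250 bases before the RefSeq gene start (GRCh38.p14), written 5′ to 3′ on the strand of the gene. For *ID1* and *ID2* the RefSeq start lies inside the annotated span given above, which comes from GENCODE, so their windows overlap that span. Capitals mark CAGAC (or GTCTG on the other strand), the core letters of a SMAD-binding CAGA box, and GGAATG (or CATTCC), the letters of a TEAD box.
TGFB2, chr1:218345086-218345335, plus strand: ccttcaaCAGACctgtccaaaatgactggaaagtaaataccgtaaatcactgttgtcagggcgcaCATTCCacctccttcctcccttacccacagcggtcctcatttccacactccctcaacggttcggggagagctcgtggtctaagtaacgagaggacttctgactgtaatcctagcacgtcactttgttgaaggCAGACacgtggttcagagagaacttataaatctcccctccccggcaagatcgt
ID1, chr20:31605039-31605288, plus strand: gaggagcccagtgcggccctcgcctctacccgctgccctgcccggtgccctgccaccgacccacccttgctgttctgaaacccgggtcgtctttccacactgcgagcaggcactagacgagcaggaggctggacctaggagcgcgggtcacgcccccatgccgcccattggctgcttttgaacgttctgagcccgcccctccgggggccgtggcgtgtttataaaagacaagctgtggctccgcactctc
ID2, chr2:8681806-8682055, plus strand: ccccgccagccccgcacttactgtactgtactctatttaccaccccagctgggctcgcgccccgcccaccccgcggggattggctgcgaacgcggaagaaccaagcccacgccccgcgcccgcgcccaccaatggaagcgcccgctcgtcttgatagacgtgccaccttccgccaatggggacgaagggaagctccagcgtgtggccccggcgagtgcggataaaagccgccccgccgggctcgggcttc
THBS1, chr15:39580829-39581078, plus strand: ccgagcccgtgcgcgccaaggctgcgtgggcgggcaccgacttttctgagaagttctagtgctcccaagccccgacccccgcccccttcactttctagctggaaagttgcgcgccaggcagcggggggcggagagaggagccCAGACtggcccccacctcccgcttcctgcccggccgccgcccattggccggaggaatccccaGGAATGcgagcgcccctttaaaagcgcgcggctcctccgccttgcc
CCN2, chr6:131951373-131951622, minus strand: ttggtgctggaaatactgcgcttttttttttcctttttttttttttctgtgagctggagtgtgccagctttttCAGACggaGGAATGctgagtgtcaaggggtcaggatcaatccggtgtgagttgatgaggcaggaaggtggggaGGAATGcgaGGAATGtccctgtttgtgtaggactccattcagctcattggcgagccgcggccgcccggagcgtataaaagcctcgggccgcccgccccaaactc

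RefSeq held such a window for 9 of the 10 genes, all but *CCN1*. CAGAC was found on either strand in 5 of the 9 (*TGFB2*, *SMAD7*, *ID3*, *THBS1* and *CCN2*), and in 38% of 35116 RefSeq promoter windows of the same length. GGAATG was found in 3 of the 9 (*TGFB2*, *THBS1* and *CCN2*) against 11.9% of all windows. The *CCN2* window held 3 GGAATG matches, with first bases 169, 104 and 95 bases before the gene start, and a CAGAC match 177 bases before it. *TGFB2* held 2 CAGAC matches and 1 CATTCC match, and *THBS1* held 1 CAGAC match and 1 GGAATG match. GGCGCC, a GC-rich SMAD motif of BMP targets, was found in 1 of the 9, *TGFBI*, against 16.4% of all windows. Neither *ID1* nor *ID2* held any of the motifs searched. CCGGAA, a longer form of the ETS core GGAA, was found in 0 of the 9 windows against 14.5% of all windows. The core alone was not searched, and each GGAATG match contains it. The palindrome GTCTAGAC was found in 0 of the 9 against 0.182%. None of the motifs searched overlapped another within these windows. A match describes letters only, and a window without one says nothing on the binding of a factor.

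The summed counts of the 4 libraries ranged from 12229780 to 28891055, and both shFLI1 libraries were deeper than their controls. Counts of the 10 genes ranged from 102 (*SMAD7*, U87MG control) to 70973 (*THBS1*, U251MG control). Levels are given in CPM, the count of a gene relative to the TMM-adjusted size of its library, which corrects for differences in composition between libraries. With 1 library per arm there is no replicate check within a cell line. The interval given with a log2 fold change is a 95% Clopper-Pearson interval of the read proportion and covers counting error only. The single replicated contrast fitted both cell lines together in edgeR's quasi-likelihood test, with the cell lines as replicates and 1 residual degree of freedom. It gives the shared log2 fold change and a p adjusted by Benjamini-Hochberg over 16821 genes. The SE printed with a shared value was derived from the test, as the absolute log2 fold change over the square root of its F statistic. In bulk RNA, fewer cells of a kind and less RNA per cell cannot be told apart.

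*FLI1* itself had 9.34 CPM in U87MG control against 2.34 CPM in U87MG shFLI1, and 12.1 CPM in U251MG control against 3.71 CPM in U251MG shFLI1. Its log2 fold changes were -1.95 and -1.68, and the shared value was -1.84 ± 0.25 (SE), with an adjusted p of 0.0142 by edgeR's quasi-likelihood test, lower in the shFLI1 library of each cell line. Of the glial and glioma markers, *VIM*, *CD44*, *NES* and *SOX2* had at least 1337 counts in every library, while *S100B*, *OLIG2* and *AQP4* had at most 11 and *CHI3L1* at most 15. The summed level of the 7 markers of other cell types found in the table was at most 10.2 CPM in any library, against at least 5640 CPM for the glial and glioma list. Of that small sum, *CD68*, a lysosomal gene of macrophages, was most in U251MG control (9.14 of 10.2 CPM), and in U87MG control it was 4.10 of 9.78 CPM beside the endothelial genes *CDH5* at 4.45 CPM and *VWF* at 1.22 CPM. *CD68* had 47 counts in the U87MG control library against 12 after knockdown, and 163 in the U251MG control library against 14 after knockdown. *PTPRC*, *PECAM1*, *CDH1* and *RBFOX3* had at most 5 counts in any library.

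Length-scaled levels, the only ones that can be set side by side between genes, put *ID3*, *ID1* and *THBS1* at the top and *TGFB2* and *SMAD7* at the bottom of both controls. In U87MG control, the authors' FPKM summed by gene was 1028 for *ID3*, 575 for *ID1*, 438 for *THBS1*, 271 for *CCN2*, 218 for *TGFBI*, 211 for *CCN1*, 111 for *TGFB1*, 109 for *ID2*, 3.50 for *TGFB2* and 3.28 for *SMAD7*. In U251MG control, the FPKM was 679 for *THBS1*, 517 for *ID1*, 495 for *ID3*, 224 for *TGFBI*, 182 for *CCN2*, 164 for *CCN1*, 130 for *TGFB1*, 83.1 for *ID2*, 13.6 for *TGFB2* and 2.29 for *SMAD7*. *TGFB1*, the main ligand of the 10 by level, was therefore present at about the level of *ID2* in U87MG control, and neighbours as close as these cannot be ranked with 1 library each. The *ID3* level is uncertain, because the table lists the *ID3* transcript as 2 entries with identical values, each at 513 FPKM in U87MG control. Counting such entries once left its log2 fold changes at -0.68 and -0.43, an alternative chosen after seeing the data.

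**Figure D1:**
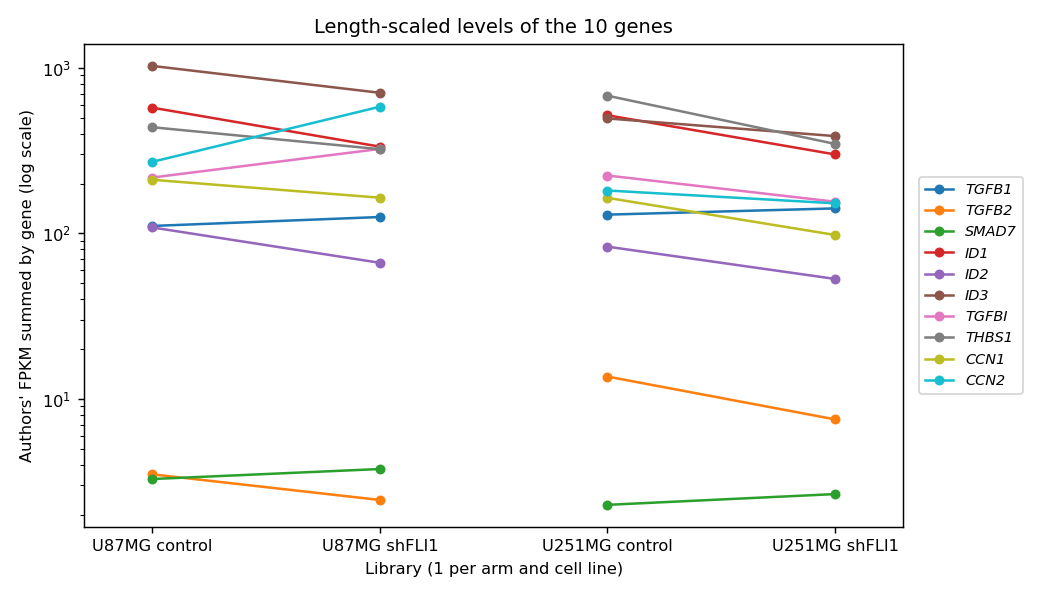
The authors' FPKM summed by gene (vertical axis, log scale) for the 10 genes in each of the 4 libraries (horizontal axis), with a line from control to shFLI1 within each cell line and no error bars, since each point is 1 library. *CCN2* moved from the fourth to the second highest level in U87MG, at 271 and 583 FPKM, while *SMAD7* and *TGFB2* lay far below the other genes.

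The controls of the cell lines differed most in *TGFB2* and *ID3*. *TGFB2* was 3.71-fold higher in U251MG control than in U87MG control, a log2 ratio of 1.89 (interval 1.69 to 2.09). *THBS1* was also higher in U251MG control, by a log2 ratio of 0.54 (0.52 to 0.56). *ID3* was lower there, with a log2 ratio of -1.15 (-1.20 to -1.10), and *CCN2* likewise at -0.65 (-0.70 to -0.60). *ID2*, *CCN1* and *ID1* were lower by smaller amounts, with log2 ratios of -0.47, -0.43 and -0.23. *SMAD7* had a log2 ratio of -0.31 with an interval from -0.70 to 0.08, and *TGFBI* one of -0.03 with an interval from -0.08 to 0.01, so neither differed beyond counting error. *TGFB1* was close too, at 0.19 (0.12 to 0.27).

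After the knockdown, 6 of the 10 genes were lower in both cell lines beyond counting error (*TGFB2*, *ID1*, *ID2*, *ID3*, *THBS1* and *CCN1*), and 2 were higher in U87MG and lower in U251MG (*TGFBI* and *CCN2*). *SMAD7* had both intervals, and *TGFB1* that of U251MG, across 0. The share of all genes beyond counting error was not computed, and these intervals narrow as counts rise. By sign alone, 7 were lower in both and 1 was higher in both, where of the 16384 genes tested in both cell lines 28.0% were lower in both, 35.5% were higher in both and 36.5% had opposite signs. The median log2 fold change of the 10 genes was -0.57 in U87MG and -0.67 in U251MG, against 0.04 and 0.03 over those 16384 genes. The changes were moderate in size. Past 2-fold there were 0 of the 10 in U87MG, where 14.5% of all genes tested lay past 2-fold in either direction, and 1 of the 10 in U251MG (*THBS1*), where the share of all genes was 9.76%. At 1.5-fold lower, the U87MG count was 5 of the 10 (*TGFB2*, *ID1*, *ID2*, *ID3* and *THBS1*) against 9.92% of all genes. In U251MG it was 6 of the 10 (*TGFB2*, *ID1*, *ID2*, *TGFBI*, *THBS1* and *CCN1*) against 8.85%. *TGFB2*, *ID1*, *ID2* and *THBS1* were past 1.5-fold lower in both cell lines. That is 4 of the 10, where the share was 3.52% of all genes tested in both. The share was 2.7% among genes that reached 100 counts in 1 library of U87MG and in 1 of U251MG, which all 10 met.

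In the shared fit, 3 of the 10 genes fell with an adjusted p below 0.05 (*ID1*, *ID2* and *TGFB2*), against 1.6% of all genes, and 0 of the 10 rose, against 0.654%. At an unadjusted p below 0.05 there were 6 of the 10, against 16.1% of all genes. DESeq2 with the same block put 6 of the 10 lower with an adjusted p below 0.05, adding *ID3*, *THBS1* and *CCN1*, against 2.4% of the 13233 genes to which it gave an adjusted p. Without the cell line as a block, edgeR's quasi-likelihood test called 0 of the 10 (3 at an unadjusted p below 0.05, against 4.23% of all genes) and 0 of all genes. The fold changes of the 10 genes and their shared values are drawn beside each other in the plot of log2 fold changes.

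**Figure D2:**
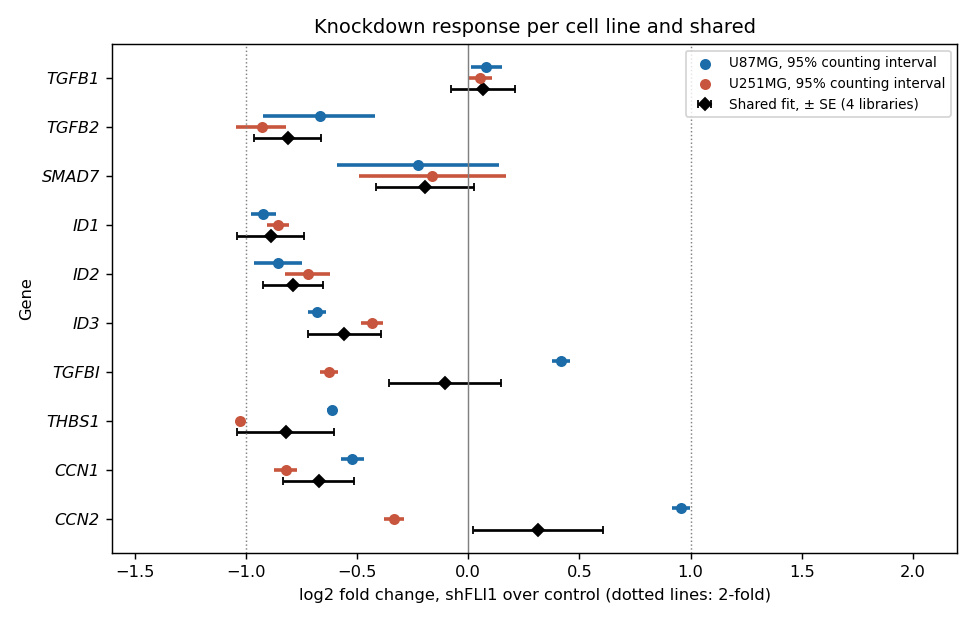
log2 fold change of shFLI1 over control (horizontal axis) for each of the 10 genes (vertical axis) in U87MG and U251MG, with bars for the 95% counting interval, and the shared value over the 4 libraries with bars for its SE; the dotted lines mark 2-fold. The cell lines lie close together for *TGFB1*, *SMAD7*, *ID1* and *ID2*, and on opposite sides of 0 for *TGFBI* and *CCN2*.

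Of the ligands, *TGFB2* fell and *TGFB1* stayed within a few percent of its controls on TMM-scaled CPM. *TGFB2*, which is abundant in glioblastoma and was first described there as a T cell suppressor, had 21.0 CPM in U87MG control, 13.2 CPM in U87MG shFLI1, 77.7 CPM in U251MG control and 40.7 CPM in U251MG shFLI1. Both shFLI1 libraries were below their own control, but U251MG shFLI1 was still above U87MG control. These were 62.8% and 52.4% of control, with log2 fold changes of -0.67 (-0.92 to -0.42) and -0.93 (-1.04 to -0.82). The shared log2 fold change of *TGFB2* was -0.81 ± 0.15 (SE; edgeR's quasi-likelihood test, adjusted p = 0.0428). Its call was lost when libraries were scaled by total counts (adjusted p = 0.0786). The U87MG value rested on 240 and 293 counts. From 91.1% to 97.6% of the *TGFB2* counts lay on 1 of its 2 RNAs in the table.

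*TGFB1*, the most widely expressed TGF-beta isoform, had 208 CPM in U87MG control, 220 CPM in U87MG shFLI1, 238 CPM in U251MG control and 247 CPM in U251MG shFLI1. Its log2 fold changes were 0.08 (0.01 to 0.15) and 0.05 (-0.00 to 0.11), and its shared value was 0.07 ± 0.14 (SE; edgeR's quasi-likelihood test, adjusted p = 0.872). In CPM, the 4 libraries spanned a narrow range for this ligand. Its rise was larger on the authors' FPKM, at 111 in control against 126 in U87MG and 130 in control against 142 in U251MG. Scaled by total counts, the log2 fold changes were 0.24 in U87MG and 0.13 in U251MG. Its counts were divided between 2 main RNAs, of which the larger held 57.5% to 63.5%. On the opposite strand, *TGFB1* overlaps *TMEM91* at an exon and *HNRNPUL1* and *CCDC97* outside the exons of its canonical transcript, and *TGFB2* overlaps *TGFB2-AS1*. Whether the counting used strand is not stated in the sources used here. *TMEM91* had at most 58 counts and *TGFB2-AS1* at most 9 in any library, but *HNRNPUL1* had 4870 to 13231, more than *TGFB1* in each library.

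Of the other superfamily ligands, only 6 of 22 listed had enough counts to be tested in the shared fit. *GDF15*, a stress-induced ligand of the superfamily, fell from 97.7 to 37.1 CPM in U87MG and from 129 to 40.6 CPM in U251MG (shared log2 fold change -1.53 ± 0.14, SE; edgeR's quasi-likelihood test, adjusted p = 0.00355). It was the 1 ligand lower by more than 2-fold in U87MG and U251MG alike. *GDF11*, a regulator of neural differentiation, rose from 15.6 to 39.0 CPM and from 21.1 to 33.5 CPM (shared 0.98 ± 0.19; adjusted p = 0.0497 in the same fit).

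*SMAD7*, the receptor brake, had 8.91 CPM in U87MG control, 7.60 CPM in U87MG shFLI1, 7.18 CPM in U251MG control and 6.41 CPM in U251MG shFLI1. The log2 fold changes of -0.23 (-0.59 to 0.14) and -0.16 (-0.49 to 0.17) both had intervals across 0, and the shared value was -0.20 ± 0.22 (SE; edgeR's quasi-likelihood test, adjusted p = 0.725). On the authors' FPKM its sign turned, with 3.28 against 3.77 FPKM in U87MG and 2.29 against 2.66 FPKM in U251MG, so no direction is given. *SMAD6*, the inhibitory SMAD of the BMP branch, had log2 fold changes of -0.39 and -0.99 (shared -0.69 ± 0.18, adjusted p = 0.110 in the same fit). Of the 7 other SMAD genes, 0 passed the shared test in either direction, and their median log2 fold changes were 0.19 and 0.01.

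The ID genes were lower in all 6 of their comparisons, and *ID1* and *ID2* fell in the shared fit. *ID1*, a direct target of SMAD1 and SMAD5, had 452 CPM in U87MG control, 239 CPM in U87MG shFLI1, 385 CPM in U251MG control and 213 CPM in U251MG shFLI1. Both shFLI1 libraries lay below both controls. They stood at 52.8% and 55.3% of control, with log2 fold changes of -0.92 (-0.98 to -0.87) and -0.85 (-0.90 to -0.80). The shared log2 fold change of *ID1* was -0.89 ± 0.15 (SE; edgeR's quasi-likelihood test, adjusted p = 0.0314), the largest in size of the 10, and it passed under each alternative that kept the cell line block. Among genes reaching 100 counts in the control or the shFLI1 cells of U87MG, 2.65% had a lower log2 fold change than *ID1*. With the same floor in U251MG, the share was 2.96%. From 92.2% to 94.1% of its counts lay on 1 of its 3 RNAs.

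*ID2*, which binds the same partners as *ID1*, had 121 CPM in U87MG control, 66.7 CPM in U87MG shFLI1, 87.5 CPM in U251MG control and 53.0 CPM in U251MG shFLI1. The shFLI1 libraries again lay below both controls, at 55.2% and 60.6% of their own. The log2 fold changes were -0.86 (-0.96 to -0.75) and -0.72 (-0.82 to -0.62), with a shared value of -0.79 ± 0.13 (SE; edgeR's quasi-likelihood test, adjusted p = 0.0317). Scaled by total counts, the adjusted p of *ID2* was 0.0553 and the call was lost. Between the cell lines the response of *ID1* differed by 0.07 on the log2 scale (-0.01 to 0.14) and that of *ID2* by 0.13 (-0.01 to 0.28), U251MG minus U87MG, both within counting error. *ID2* overlaps *ID2-AS1* on the opposite strand, which had at most 52 counts in any library.

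*ID3*, the third of this family, had 759 CPM in U87MG control, 474 CPM in U87MG shFLI1, 342 CPM in U251MG control and 254 CPM in U251MG shFLI1. Each shFLI1 library was below its own control, at 62.4% and 74.1%, but U87MG shFLI1 stayed above U251MG control. The log2 fold changes were -0.68 (-0.72 to -0.64) and -0.43 (-0.48 to -0.38), and the shared value of -0.56 ± 0.16 (SE) did not pass edgeR's quasi-likelihood test (adjusted p = 0.154). The response was smaller in U251MG by 0.25 on the log2 scale (0.18 to 0.31), which is beyond counting error. DESeq2 gave *ID3* an adjusted p of 0.0415. *ID4*, the remaining gene of the family and no member of the 10, was chosen for mention after its values were seen. It had log2 fold changes of -0.51 and -1.07, and an adjusted p of 0.0835 by edgeR's quasi-likelihood test.

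**Figure D3:**
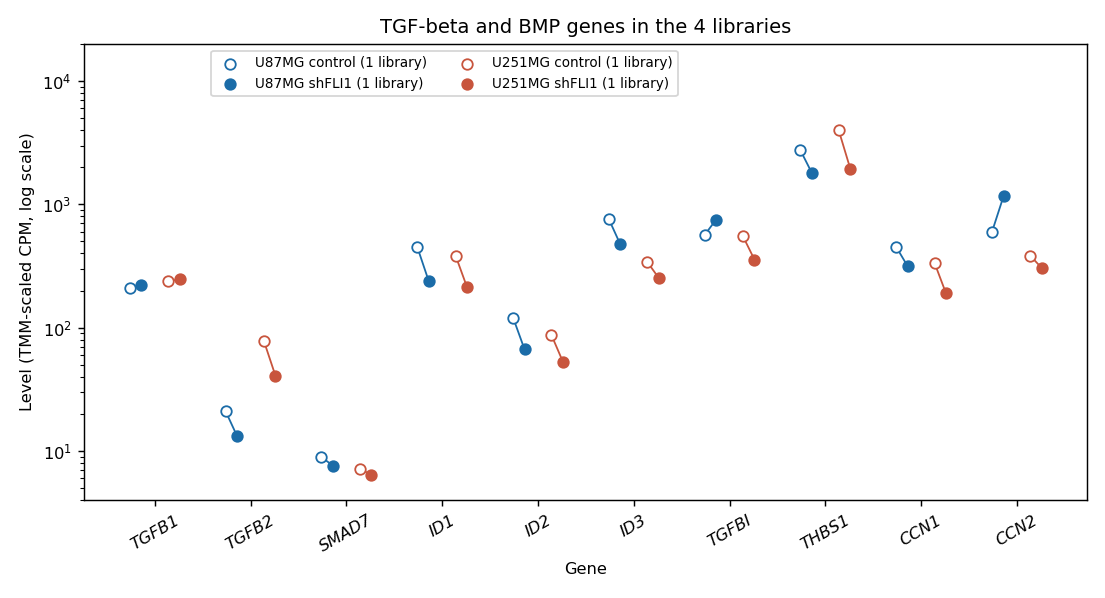
TMM-scaled CPM (vertical axis, log scale) of the 10 genes (horizontal axis) in the 4 libraries, with open circles for control, filled circles for shFLI1 and a line joining the 1 library of each arm in a cell line. *ID1* went from 452 to 239 CPM in U87MG and from 385 to 213 CPM in U251MG, while the lines of *CCN2* and *TGFBI* run in opposite directions in the cell lines.

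The secreted matrix genes did not move as a block. *THBS1*, which encodes thrombospondin-1, a matrix protein that can release active TGF-beta from its latent complex, had the most counts of the 10. It had 2745 CPM in U87MG control, 1794 CPM in U87MG shFLI1, 3981 CPM in U251MG control and 1952 CPM in U251MG shFLI1. Both shFLI1 libraries were below both controls, at 65.4% and 49.0% of their own. The log2 fold changes were -0.61 (-0.63 to -0.59) and -1.03 (-1.04 to -1.01), and the latter was -0.95 with total counts and -0.97 on the authors' FPKM, both short of 2-fold. The shared value of *THBS1* was -0.82 ± 0.22 (SE; edgeR's quasi-likelihood test, adjusted p = 0.119), against an adjusted p of 0.000297 by DESeq2. The cell lines differed in response by -0.42 on the log2 scale (-0.44 to -0.39), U251MG minus U87MG. From 68.1% to 71.4% of the *THBS1* counts lay on 1 RNA and most of the rest on another. *FSIP1*, which overlaps *THBS1* on the opposite strand, had at most 72 counts in any library.

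*CCN1* and *CCN2* encode secreted matricellular proteins of one family, and both are standard readouts of YAP and TEAD. *CCN1* had 451 CPM in U87MG control, 314 CPM in U87MG shFLI1, 335 CPM in U251MG control and 189 CPM in U251MG shFLI1. Each shFLI1 library was below both controls, at 69.6% and 56.6% of its own. Its log2 fold changes were -0.52 (-0.57 to -0.47) and -0.82 (-0.87 to -0.77), and the shared value of -0.67 ± 0.16 (SE) did not pass edgeR's quasi-likelihood test (adjusted p = 0.0891), while DESeq2 gave 0.00798.

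*CCN2* went the other way in U87MG. It had 599 CPM in U87MG control, 1163 CPM in U87MG shFLI1, 383 CPM in U251MG control and 304 CPM in U251MG shFLI1. U87MG shFLI1 was the highest of the 4 libraries and U251MG shFLI1 the lowest. The log2 fold change was 0.96 (0.92 to 1.00) in U87MG, a level 1.94-fold that of control. Of genes with at least 100 counts in 1 U87MG library, 97.1% had a lower log2 fold change. In U251MG the log2 fold change of *CCN2* was -0.33 (-0.38 to -0.29). On total counts and on the authors' FPKM, *CCN2* lay past 2-fold in U87MG, at up to 1.12 on the log2 scale. The shared value of 0.31 ± 0.29 (SE) did not pass edgeR's quasi-likelihood test (adjusted p = 0.665). The response differed by -1.29 on the log2 scale between the cell lines (-1.35 to -1.23, counting error only), U251MG minus U87MG. *CCN2* overlaps *LINC01013* on the opposite strand, which had at most 6 counts in any library.

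*TGFBI*, a secreted matrix protein named for its induction by TGF-beta, showed the same opposition at a smaller size. It had 564 CPM in U87MG control, 753 CPM in U87MG shFLI1, 551 CPM in U251MG control and 357 CPM in U251MG shFLI1. The controls were nearly level, and the shFLI1 libraries lay on either side of them. The log2 fold changes were 0.42 (0.38 to 0.46) and -0.63 (-0.67 to -0.59), a difference of -1.04 (-1.10 to -0.99), and the shared value was -0.11 ± 0.25 (SE; edgeR's quasi-likelihood test, adjusted p = 0.887). Log2 fold changes more than 1 apart between the cell lines were found for 2 of the 10 genes (*CCN2* and *TGFBI*), against 3.08% of all genes that met the floor of 100 counts. With 1 library per arm, the difference between the cell lines could not be tested beyond counting error.

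The other genes of the pathway were described from lists of its receptors, activators, inhibitors and targets. The counts below stand against 1.6% of all genes that fell and 0.654% that rose in the shared fit. Of 13 receptor and co-receptor genes in the shared fit, 0 fell and 1 rose. This was *RGMA*, a co-receptor of BMPs, with 11.7 against 23.2 CPM in U87MG and 28.0 against 46.0 CPM in U251MG (shared log2 fold change 0.84 ± 0.16, SE; edgeR's quasi-likelihood test, adjusted p = 0.0433). The receptor medians were 0.26 and 0.19, and 8 of 14 were higher in both cell lines, against 35.5% of all genes. Of 8 genes of latency and activation, 1 rose, *ITGB8*, which encodes the integrin subunit that activates latent TGF-beta. It had 150 against 298 CPM in U87MG and 189 against 362 CPM in U251MG (shared 0.97 ± 0.15; adjusted p = 0.0223 in the same fit). Of 14 inhibitors, 1 fell and 0 rose. *FST*, which encodes the activin antagonist follistatin, went from 7.86 to 3.06 CPM and from 12.7 to 4.61 CPM (shared -1.42 ± 0.23; adjusted p = 0.0287 in the same fit).

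Of 25 further TGF-beta target genes in the shared fit, 4 fell and 0 rose. *CDKN1A*, the cell cycle inhibitor p21, had log2 fold changes of -1.30 and -1.49 (shared -1.40 ± 0.14, SE; edgeR's quasi-likelihood test, adjusted p = 0.00428). *ACTA2*, smooth muscle actin, had -1.08 and -2.15 (adjusted p = 0.0291), and both genes were past 2-fold lower in both cell lines. *JUNB*, an AP-1 factor, had -0.84 and -1.10 (adjusted p = 0.0212), and *KLF10*, an early TGF-beta response gene, had -0.98 and -0.62 (adjusted p = 0.0455). The list as a whole was split: 10 of 22 were lower in both cell lines, 3 were higher in both and 9 had opposite signs. By sign, all 9 were higher in U87MG and lower in U251MG, as *CCN2* and *TGFBI* were. Over all genes, 3051 of the 5979 with opposite signs ran that way. Unlike *CCN2* and *TGFBI*, several of the 9 had a counting interval across 0 in a cell line or in both. The list medians were 0.11 in U87MG and -0.45 in U251MG, against 0.04 and 0.03 for all genes.

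Of 10 listed BMP target genes, 0 passed in either direction, with medians of -0.38 and -0.23. Of these, 6 of 10 were lower in both cell lines, against 28.0% of all genes. The list overlaps those of other SMADs, inhibitors and paralogs, and holds *SMAD6* and *ID4*, described above. The largest shared log2 fold change of this list was that of *ATOH8*, a helix-loop-helix factor, at -0.79 ± 0.24 (SE; edgeR's quasi-likelihood test, adjusted p = 0.158). Of 20 YAP and TEAD targets beside *CCN1* and *CCN2*, 3 fell and 0 rose, against 1.6% and 0.654% of all genes, with medians of -0.19 and -0.55. *NT5E*, the adenosine-producing enzyme CD73, had log2 fold changes of -1.38 and -2.33 (adjusted p = 0.0104 in the same fit). *GADD45A*, a stress-response gene, had -1.57 and -0.94 (adjusted p = 0.0376 in the same fit). On the authors' FPKM, *GADD45A* fell in U87MG (20.18 in control against 7.46) but not in U251MG (9.97 in control against 10.86). *AJUBA*, a LIM-domain scaffold of the Hippo pathway, had -0.78 and -0.72 (adjusted p = 0.0386 in the same fit). Of the 7 tested paralogs of the 10 genes, 0 passed. Their largest shared log2 fold change was that of *POSTN*, which encodes periostin, the paralog of the *TGFBI* product, at 1.11 ± 0.57 (adjusted p = 0.393) on at most 59 counts. Beside these genes, the glial markers *GFAP* and *FABP7* rose past 2-fold in both cell lines (adjusted p = 0.0152 and 0.0277 in the same fit), and *CD68* fell (adjusted p = 0.00976). Their part in the results above was not tested.

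**Figure D4:**
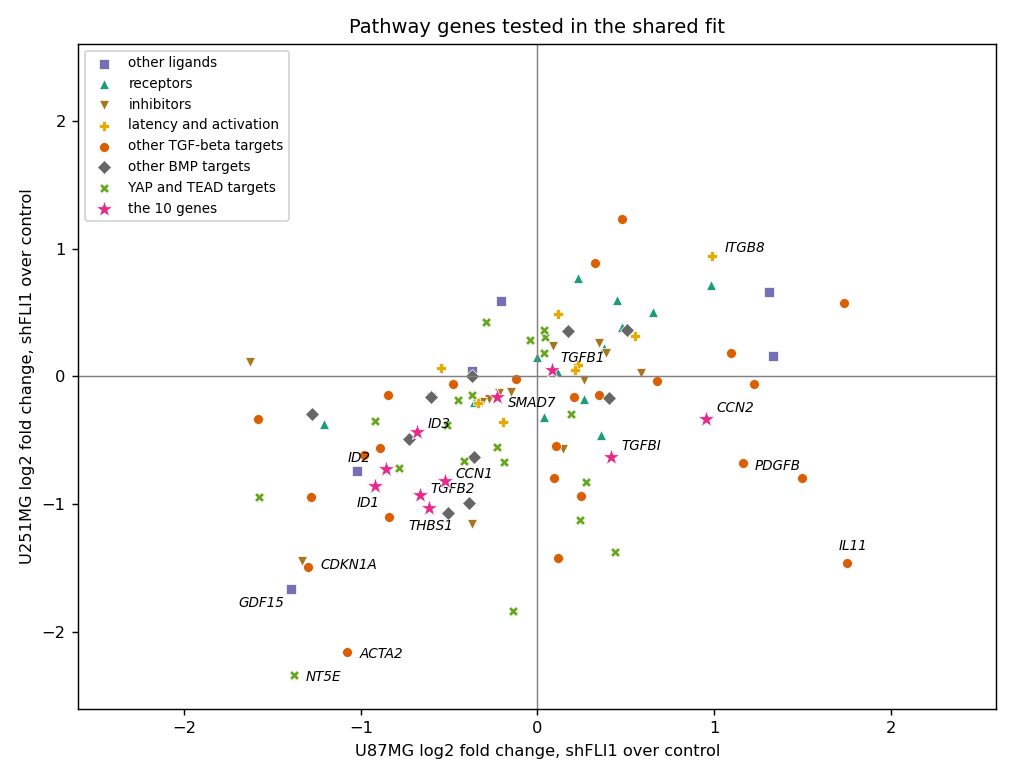
log2 fold change of shFLI1 over control in U87MG (horizontal axis) against U251MG (vertical axis) for the pathway genes tested in the shared fit, each point a gene, with marker shapes for the lists and stars for the 10 genes. *CCN2* and *TGFBI* lie in the lower right (higher in U87MG, lower in U251MG) with 9 further TGF-beta targets tested in both cell lines, while the ID genes, *TGFB2*, *THBS1* and *CCN1* lie in the lower left.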

How the data were processed

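RNA-seq libraries of control and shFLI1 cells of U87MG and U251MG were analysed, 1 per arm and cell line, grouped by the sample titles. For these libraries the authors enriched polyadenylated RNA, sequenced paired ends, aligned the reads to GRCh38 (GRCh38.p13 in the submitters' processing notes) with HISAT2 and derived FPKM by StringTie. In the deposited table, every linear RNA has an estimated count per library, not normalized, and the authors' FPKM, which is scaled to transcript length and to mapped fragments. The counter behind the estimated counts and the strand setting are not given in the sources used here. A further 10 value columns, TPM and means, were not used, and circular RNAs were not used.

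Estimated counts of 185042 linear RNAs were added up per gene identifier (46660) and then rounded to whole numbers. RefSeq gave a symbol to 23775 of the 24411 Entrez identifiers. Counts were scaled by TMM (edgeR 4.0.16, R 4.3.3), and log2 fold changes within a cell line used a prior count of 2 and genes that reached 10 counts in 1 of its libraries. The shared effect was fitted to all 4 libraries by edgeR's quasi-likelihood test, blocked on cell line, after filterByExpr, with a threshold of 0.05 after Benjamini-Hochberg adjustment. DESeq2 1.42.0, other scalings, filters, thresholds and FPKM were alternatives. No label speaks of repeat cultures within an arm, so p-values measure only the spread between these 4 samples. Intervals cover counting error only, since each arm of a cell line is 1 library. They may be too narrow even for that, since PCR copies of a molecule are counted as reads. Scripts were tested on simulated data. Promoter windows came from RefSeq (GRCh38.p14), gene positions from GENCODE on GRCh38.

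The 10 genes and all lists were chosen with earlier results of these data known. Beside the 10 genes and *FLI1*, the text names listed genes past 2-fold the same way in U87MG and U251MG, those with a shared adjusted p below 0.05, and the gene of each list with the largest shared log2 fold change. Markers, overlapping genes and genes marked as chosen after their values were seen are outside this rule. *GDF10*, *NRROS*, *GREM1*, *CDKN2B*, *CCN6*, *AIF1*, *CD3E*, *EPCAM* and *LUM* were listed but not analysed here, and some listed genes are not reported here by name.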

Additional observations from a re-analysis of the deposited data

Results flagged for a closer look

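The response of *CCN2* differed in direction between the cell lines. Its log2 fold change was higher than 0 in U87MG (0.96) and lower than 0 in U251MG (-0.33), a difference of -1.29, U251MG minus U87MG. *TGFBI* differed in the same way, with 0.42 in U87MG and -0.63 in U251MG, a difference of -1.04. The difference was not tested for either gene, since each arm of a cell line is 1 library.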

How the results depend on the processing

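Of 140 log2 fold changes of the 10 genes under alternatives within a cell line, 58 left the counting interval and 4 changed sign, all of *SMAD7* on FPKM. Of 80 shared values, 69 stayed on the same side of the threshold, 5 lost the call and 6 gained it. Genes of the 10 past 2-fold (0 in U87MG, 1 in U251MG) became 1 and 0 under total-count scaling, as they did on FPKM at either pseudocount (1 or 0.1), and 6 and 6 at a 1.5-fold threshold. Over all genes, the U87MG count of 2512 became 555 with at least 100 counts in 1 library, 6201 with at least 1, 4949 at 1.5-fold and 831 with log2(FPKM + 1). The U251MG count of 1778 became 400, 5311, 3986 and 538 in the same order. In the shared fit, 379 genes became 1303 with at least 1 count in any library and 0 without the cell line block. The count of 3 among the 10 genes became 6 with DESeq2, 6 with at least 1 count in any library, 1 with total counts (*ID1*) and 0 without the block. Adjusted p over the alternatives ranged from 6.43e-06 to 0.826 for *ID1*, from 9.32e-05 to 1.00 for *ID2* and from 0.000314 to 1.00 for *TGFB2*, the upper end in each case without the block. Total counts moved the median log2 fold change of all genes to 0.22 in U87MG and 0.11 in U251MG, from 0.06 and 0.04 with TMM. The cause of these changes was not tested. Counting RNAs with the same values once, thinning the shFLI1 libraries to control depth and TMM after the filter were chosen after seeing the data, and each kept 0 and 1 of the 10 past 2-fold or 3 in the shared fit. The pairing used is that of control and shFLI1 within a cell line, the block of the shared test. The labels give no replicate numbers, and with 1 library per group none could be left out. *SMAD7* had 102 to 192 counts, the fewest of the 10, and the widest counting intervals.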

Other observations

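*IL11* and *PDGFB*, TGF-beta targets named here after their values were seen, ran in the direction of *CCN2* and *TGFBI*. *IL11*, a cytokine, had 7.95 CPM in U87MG control, 27.1 CPM in U87MG shFLI1, 29.4 CPM in U251MG control and 10.7 CPM in U251MG shFLI1. Its log2 fold changes of 1.76 and -1.46 made it the 1 gene of its list past 2-fold in opposite directions. *PDGFB*, a growth factor for glial progenitors, had log2 fold changes of 1.16 and -0.68. By contrast *COL1A2*, a fibrillar collagen chain, also chosen after its values were seen, had -1.58 in U87MG and -0.33 in U251MG, and *FN1*, fibronectin, -0.84 and -0.15. None of these 4 genes passed edgeR's quasi-likelihood test for a shared effect, with adjusted p values of 0.983, 0.852, 0.176 and 0.278 in the order named.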
